A study of Mus musculus with 41 samples.

Results

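The genes described here are the chemokine ligands and receptors of mouse endometriosis lesions outside the type 2 and lymphoid-homing group. They were chosen by name: every gene of the count table with a Ccl, Cxcl, Ccr, Cxcr, Cx3cl, Cx3cr, Xcl or Xcr symbol followed by a digit, leaving out 11 symbols (Ccl11, Ccl17, Ccl19, Ccl21a, Ccl22, Ccl24, Ccr3, Ccr4, Ccr7, Cxcl13 and Cxcr5), of which 9 were in the table. The rule gave 38 of 21249 genes, 25 ligands and 13 receptors, out of 47 that carried such a symbol. Together they took a median of 0.114% of the counts of a library (range 0.0697% to 0.253%).

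Chemokines are small secreted proteins that guide leukocytes along a gradient, and their receptors signal through inhibitory G proteins. CC and CXC ligands are named for the spacing of conserved cysteines, and CXC ligands with an ELR motif before the first cysteine attract neutrophils through Cxcr1 and Cxcr2. Cx3cl1 (fractalkine) and its only known receptor Cx3cr1 form a branch of their own that is used by monocytes and tissue macrophages. In endometriosis, a disease in which endometrium-like tissue grows at other sites, chemokines are studied as signals that bring macrophages, neutrophils and lymphocytes into the lesion.

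RNA was sequenced from 41 whole lesions in 11 groups of mice aged 12 to 16 weeks. Each lesion grew from a uterine punch of 4 mm fixed to the inner wall of the recipient's peritoneal cavity, and from day 7 the recipient had 3 intraperitoneal injections of 1 µg interleukin-33 (IL-33) or of PBS over 6 days. IL-33 was given to C57Bl/6J mice (wild type), Id2fl/fl mice (floxed controls) and Nmur1iCre-eGFP mice (Cre controls), which the series calls competent for group 2 innate lymphoid cells (ILC2s), and to Nmur1iCre-eGFP Id2fl/fl mice, which it calls ILC2-deficient, with n = 4 in each group. Further deficient mice had PBS in place of IL-33 (n = 4), IL-33 with added PBS (n = 4), or IL-33 begun the day after 120000 (n = 2) or 250000 (n = 4) ILC2s, and wild-type mice had IL-33 after 120000 ILC2s (n = 3). Here n counts lesions, and recipients are counted by their lesions below, since separate animals are not stated. In the lesion-transfer groups, Nmur1iCre-eGFP fragments grew in deficient recipients and deficient fragments in Nmur1iCre-eGFP recipients, both with IL-33 (n = 4 each). For these transfers the labelled genotype belongs to the fragment, and in the other groups the recipient was assumed to have the same genotype as its lesion. The deletion of Id2 is limited to cells that have used the Nmur1-driven Cre, and PBS was given without IL-33 to deficient mice alone, so no competent lesion without IL-33 is compared here.

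Library totals ran from 28884926 to 70526624 counts (median 42906356). Levels are CPM, counts scaled to the library total and a TMM factor, and levels of different genes are compared as FPKM, which is CPM per kilobase of exon. Fold changes are log2 values ± standard error from edgeR's quasi-likelihood test over all 21249 genes, and a gene is called at a Benjamini-Hochberg adjusted p under 0.05. In 4 libraries a list of 12 liver genes took 2.41% to 9.48% of the counts, against at most 0.0712% elsewhere, and 9 of the 12 genes had 0 counts in at least 1 library. These were wild-type replicate 4, Cre-control replicate 3, replicate 2 of deficient lesions under IL-33 and replicate 3 of wild type given 120000 ILC2s. In 2 libraries a list of 9 T cell genes took over 0.005%, namely 0.0467% in replicate 3 of the Cre fragments in deficient recipients and 0.0102% in replicate 1 of the deficient fragments in Cre-control recipients. Genes of endometrial epithelium (10 genes, 0.00162% to 0.509% of counts) and of endometrial stroma (6 genes, 0.00752% to 0.172%) were present in each library. In whole lesions, fewer cells of a type and less RNA per cell cannot be told apart. No gene was removed for low counts, and the lowest of their totals over the 41 libraries was 823 counts.

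The promoters of the genes that the results turn on are shown to let the sequence be read beside the values. RefSeq (GRCm38.p6) gave 33 promoters for 29 of the 38 genes, and each window below holds the 250 bases before the transcript start, read 5′ to 3′ on the gene's strand. Capitals mark matches on either strand to 1 of 5 motifs, spelled as the TATA box TATAAA, the NF-kB motif GGGNNTTTCC, the interferon regulatory factor motif GAAANNGAAA, the gamma-activated site TTCNNNGAA and the STAT6 motif TTCNNNNGAA. The last 2 share their outer letters and differ in spacing, and TATAAA overlaps its own reverse complement in the run TTTATAAA. Ccl6, Ccl9 and Ccl8 are CC ligands that stood lower in lesions of deficient recipients than in those of Cre-control recipients.
Ccl6: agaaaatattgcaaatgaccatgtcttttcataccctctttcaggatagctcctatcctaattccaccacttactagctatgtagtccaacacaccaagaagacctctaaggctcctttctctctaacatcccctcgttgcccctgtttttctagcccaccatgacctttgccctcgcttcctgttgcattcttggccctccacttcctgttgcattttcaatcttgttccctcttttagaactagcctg
Ccl9: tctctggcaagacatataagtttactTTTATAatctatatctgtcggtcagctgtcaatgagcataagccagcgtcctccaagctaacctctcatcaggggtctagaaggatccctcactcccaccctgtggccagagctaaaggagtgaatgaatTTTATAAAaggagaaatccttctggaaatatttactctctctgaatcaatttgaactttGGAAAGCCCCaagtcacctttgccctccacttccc
Ccl8: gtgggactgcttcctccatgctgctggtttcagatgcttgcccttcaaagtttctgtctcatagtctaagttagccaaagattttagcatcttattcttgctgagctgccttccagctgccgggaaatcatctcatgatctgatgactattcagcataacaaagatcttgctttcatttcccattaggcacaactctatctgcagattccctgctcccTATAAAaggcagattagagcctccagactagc

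Ccl3 and Cx3cr1 were higher in the same recipients, and Cxcl9 and Cxcl10, ligands of Cxcr3, a receptor of activated T cells, had their highest levels in the lesions rich in T cell transcripts.
Ccl3: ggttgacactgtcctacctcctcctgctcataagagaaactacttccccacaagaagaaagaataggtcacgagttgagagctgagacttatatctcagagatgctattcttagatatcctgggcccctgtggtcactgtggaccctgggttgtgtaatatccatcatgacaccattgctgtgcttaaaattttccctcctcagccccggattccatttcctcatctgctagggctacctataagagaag
Cx3cr1: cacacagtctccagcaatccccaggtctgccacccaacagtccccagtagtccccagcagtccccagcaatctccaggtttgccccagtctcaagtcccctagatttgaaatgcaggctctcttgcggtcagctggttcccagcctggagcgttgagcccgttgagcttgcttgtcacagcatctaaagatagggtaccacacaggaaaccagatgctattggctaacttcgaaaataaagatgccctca
Cxcl9: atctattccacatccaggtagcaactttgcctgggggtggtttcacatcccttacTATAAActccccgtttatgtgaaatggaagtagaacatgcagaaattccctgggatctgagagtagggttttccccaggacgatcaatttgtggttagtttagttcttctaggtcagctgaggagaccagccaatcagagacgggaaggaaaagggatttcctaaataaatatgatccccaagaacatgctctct
Cxcl10: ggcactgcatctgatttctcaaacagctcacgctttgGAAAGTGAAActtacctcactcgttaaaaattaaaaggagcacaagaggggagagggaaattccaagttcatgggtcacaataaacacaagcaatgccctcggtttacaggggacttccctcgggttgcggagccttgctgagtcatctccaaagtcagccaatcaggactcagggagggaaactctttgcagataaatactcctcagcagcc

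These windows lie at chr11:83593088-83593337 (minus strand) for Ccl6, chr11:83578637-83578886 (minus strand) for Ccl9, chr11:82114935-82115184 (plus strand) for Ccl8, chr11:83649379-83649628 (minus strand) for Ccl3, chr9:120068297-120068546 (minus strand) for Cx3cr1, chr5:92328080-92328329 (minus strand) for Cxcl9 and chr5:92348890-92349139 (minus strand) for Cxcl10. The Ccl6, Ccl3 and Cx3cr1 windows held none of the 5 motifs, which says only that these letters are not there. Positions are counted from the transcript start and mark the first base of a match. Ccl8 held TATAAA at -32 and Cxcl9 at -195. Ccl9 held it at -92 and, on the other strand, at -94 and -224, beside an NF-kB match on the other strand at -35. Cxcl10 held the interferon regulatory factor motif at -213. The NF-kB motif was in 4 of the 33 promoters, those of Ccl9, Cxcl1, Cxcl2 and Cxcl3, and in 1.41% of 32851 promoters of the same length. The interferon regulatory factor motif was in 2 (Cxcl10 and Cxcl14, 2.98% of all), the gamma-activated site in 2 (Ccr6 and Cxcl14, 7.02% of all), TATAAA in 9 (12.4% of all) and the STAT6 motif in 0 (5.85% of all). Cxcl1, Cxcl2 and Cxcl3 lie within 1 cluster on chromosome 5 and held the NF-kB motif at -71 and -89, at -78 and -97, and at -73.

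The most abundant transcripts per length were those of CC ligands. Ccl6 had a median of 133 (64.2 to 433) FPKM over the 41 libraries (lowest to highest in parentheses), Ccl8 123 (23.1 to 439) and Ccl9 64.4 (29.0 to 172). Cxcl14, a ligand made by epithelium and stroma, followed with 29.0 (7.46 to 63.8) FPKM, then the receptor Cxcr4 with 17.3 (7.78 to 33.6) and its ligand Cxcl12 with 17.1 (9.98 to 54.8). The ranges of neighbours in this order overlap, so Ccl6 and Ccl8 do not stand apart from each other, nor do Cxcl14, Cxcr4 and Cxcl12.

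Middle levels were shared by ligands and receptors alike. The membrane-bound ligand Cxcl16 had a median of 16.6 (9.97 to 34.5) FPKM, Ccr1 13.1 (4.68 to 35.2), Ccl7 9.65 (2.76 to 31.9) and Ccr2, the receptor of inflammatory monocytes, 7.25 (3.17 to 26.0). The neutrophil attractants Cxcl5 and Cxcl2 had 6.79 (1.23 to 21.7) and 6.69 (1.49 to 29.1), and Cxcl17, a ligand of mucosal epithelium, 6.07 (0.0390 to 48.4). The monocyte attractants Ccl2 and Ccl12 had 5.46 (1.24 to 20.5) and 4.04 (1.29 to 17.9), and the macrophage ligands Ccl3 and Ccl4 had 5.22 (1.51 to 18.9) and 3.16 (0.961 to 10.4). Cx3cr1 and Cx3cl1 had 3.30 (0.766 to 10.2) and 3.19 (1.37 to 7.60). The ranges of neighbours in this order overlap, while those of Cxcl16 and Cx3cl1 do not.

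Lower medians were found for the other 18 genes. Ccl25, the thymic and gut ligand of Ccr9, had 2.84 (2.44 to 3.64) FPKM, the narrowest range of all 38 genes by the ratio of highest to lowest (1.49-fold). The annotated span of Ccl25 overlaps Elavl1 on the opposite strand, and with no known strand setting reads of shared bases cannot be assigned. The same limit holds for other members, among them Ccl27a (Il11ra1), Ccr9 (Lztfl1), Cxcl10 and Cxcl11 (Art3), Cxcl16 (Zmynd15) and Cxcr6 (Fyco1). Cxcl3 had 2.41 (0.460 to 7.03), Cxcr2 2.16 (0.594 to 5.25), the mucosal ligand Ccl28 1.77 (0.0775 to 18.4), Ccl5 1.34 (0.479 to 58.0) and the skin ligand Ccl27a 1.32 (0.722 to 2.73). Cxcr6 had 1.32 (0.362 to 16.5), Cxcr3 1.10 (0.309 to 19.0), Cxcl1 1.04 (0.200 to 7.83), Cxcl10 0.841 (0.177 to 37.2) and Cxcl9 0.504 (0.0489 to 115). Ccr8, a receptor of ILC2s and other type 2 lymphocytes, had 0.409 (0.0645 to 3.52), Ccr6 0.399 (0.0976 to 1.74) and Cxcr1 0.367 (0.106 to 0.927). The least abundant were Xcl1 with 0.317 (0 to 24.9), its dendritic cell receptor Xcr1 with 0.148 (0.0483 to 1.56), Ccr9 with 0.147 (0.0414 to 0.605) and Cxcl11 with 0.0414 (0 to 1.88). Xcl1 had 0 counts in replicate 4 of the deficient fragments in Cre-control recipients, which allows up to 0.0724 CPM (3 counts), and Cxcl11 in replicate 1 of the Cre controls and replicate 4 of the group given 250000 ILC2s, which allows up to 0.0884 and 0.0839 CPM. The annotation lists Cxcl11 as a polymorphic pseudogene.

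**Figure D1:**
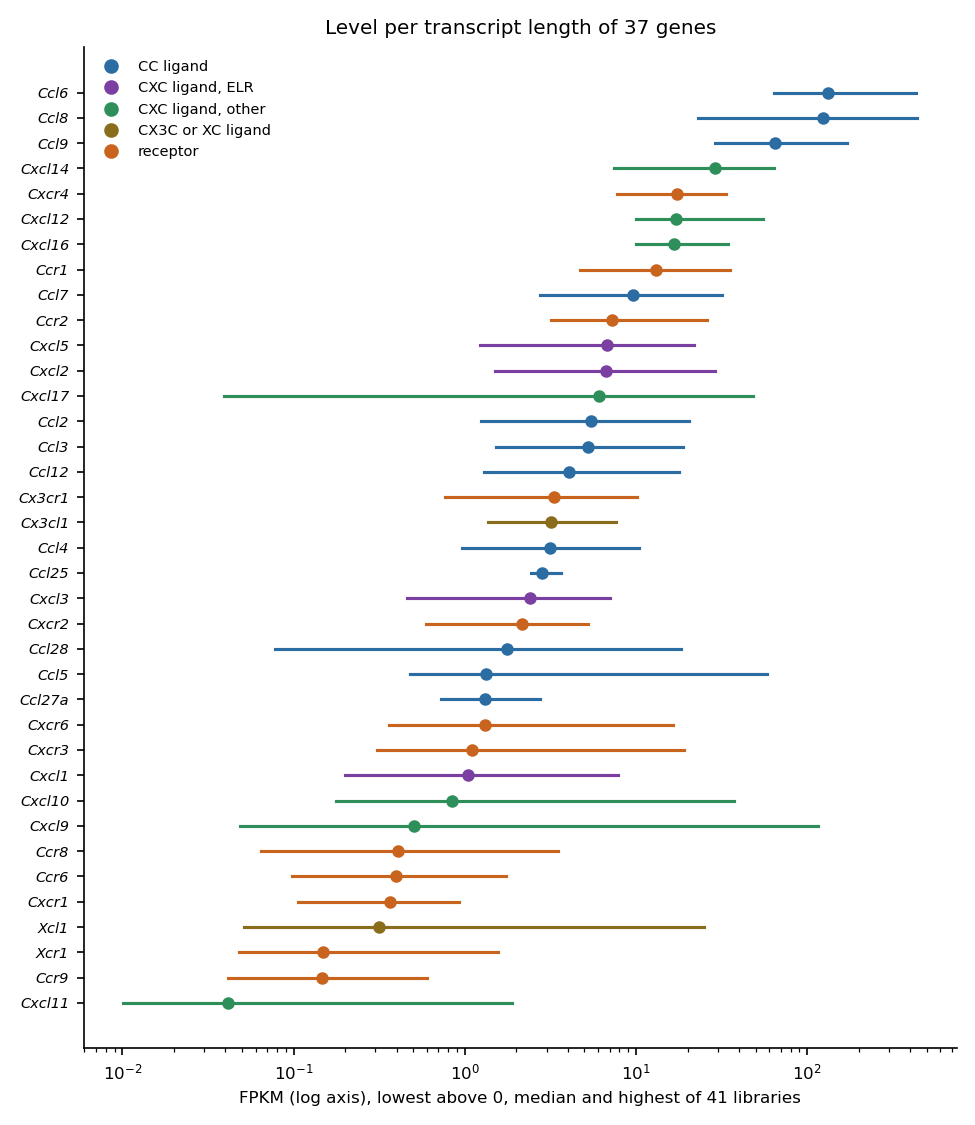
Level of 37 of the genes as FPKM (CPM per kilobase of exon) on a log axis; dots are medians over 41 libraries, lines run from the lowest value above 0 to the highest, and colours give the role. Ccl6, Ccl8 and Ccl9 lie at the top, and Cxcl9, Cxcl17 and Ccl28 have some of the longest lines.

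Under IL-33, lesions of deficient mice (n = 4) were set against the mean of the 3 competent genotypes (n = 12), to ask what the lack of ILC2s changes. Cx3cr1, Ccl3 and Ccl4 rose in deficient lesions, and 0 of the 38 genes fell. Across all 21249 genes 11% were called, 6.24% higher and 4.72% lower, so the members' share (7.89%) was no more than the background. At an unadjusted p under 0.05 there were 15 members, and the median change was 0.17 for the members and -0.01 for all genes.

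Cx3cr1 (ENSMUSG00000052336.7, chromosome 9, minus strand) stood in deficient lesions at 20.2, 14.9, 24.7 and 23.4 CPM. Wild type had 7.25, 12.4, 9.07 and 7.35, floxed controls 4.55, 3.45, 4.71 and 6.98, and Cre controls 9.31, 5.46, 11.9 and 8.40 CPM. All 4 deficient values lay above all 12 competent ones, and the lowest of them came from the library with liver transcripts. The difference was 1.51 ± 0.23 on the log2 scale (2.84-fold, adjusted p = 0.000179 in edgeR's quasi-likelihood test).

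Ccl3 and Ccl4, neighbouring genes for inflammatory macrophage ligands, rose with it. Ccl3 had 7.99, 2.70, 5.34 and 9.49 CPM in deficient lesions, against 1.16 to 5.10 (median 2.78) in the 12 competent ones, a difference of 1.30 ± 0.33 (adjusted p = 0.00919 by edgeR). Ccl4 had 4.10, 1.41, 2.46 and 3.95 CPM against 0.634 to 3.27 (median 1.42), a difference of 1.09 ± 0.31 (adjusted p = 0.0195 by edgeR). In both genes the library with liver transcripts was the low one and the groups overlapped. Without replicate 4 of the deficient group neither gene was called, and without replicate 1 Ccl4 was not. Without the 4 libraries with liver transcripts all 3 calls were made.

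Ccr8 had the reverse pattern without passing the test. It had 0.376, 0.184, 0.347 and 0.261 CPM in deficient lesions and 0.480 to 1.62 (median 0.905) in competent ones. The groups did not overlap, and the difference was -1.73 ± 0.62 (adjusted p = 0.0669). Counts were few, with a median of 20 per library over the series. DESeq2's Wald test called 5 members in this comparison, Ccr8 among them as lower, with 3007 of all 21249 genes. A fit to the compared groups alone called 9, which included Ccr8, Cxcl9, Cxcl10, Cxcr6 and Xcl1, with 2308 of 20917 genes, against 3 members and 2329 of 21249 genes in the fit to all groups.

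The values of deficient lesions against each of the 3 competent genotypes differed, and so did the members called. These side-by-side values were chosen after the group levels were seen, and the comparisons share the deficient libraries. Against wild type alone 8 of 38 members were called (8.59% of all genes), against floxed controls alone 3 (8.55%) and against Cre controls alone 1 (3.83%). Cx3cr1 was the 1 called in each, with 1.20 ± 0.31, 2.08 ± 0.32 and 1.24 ± 0.31. Ccl3 and Ccl4 were called against wild type and floxed controls and had 0.81 ± 0.43 and 0.42 ± 0.40 against Cre controls. Ccl7, which brings monocytes through Ccr2, was higher than in wild type (1.35 ± 0.42) and had -1.04 ± 0.42 against Cre controls. Ccl6 was lower than in wild type (-1.02 ± 0.33, adjusted p = 0.0464 by edgeR), and had -0.02 ± 0.32 against floxed controls. Cx3cl1, Cxcr1 and Ccl25 made up the 8 against wild type, with 1.25 ± 0.36, 1.49 ± 0.49 and -0.26 ± 0.08. For Ccl25, reads of bases shared with Elavl1 cannot be assigned.

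Lesion transfer lets recipient and fragment genotype be read apart, with 8 lesions from deficient and 8 from Cre-control recipients, grown from fragments of either genotype in equal number. By recipient, 8 of the 38 genes were called (11.3% of all genes), 2 higher in deficient recipients (5.02%) and 6 lower (6.29%). The members' share over both directions was 21.1%, with more than the background among the lower genes and a share near it among the higher ones. Cx3cr1 and Ccl3 rose, and those that fell included the ligands Ccl6, Ccl7, Ccl8 and Ccl9 and the receptor Ccr1. The reference here is Cre-control recipients alone. Over all groups, 21 of 22 lesions in deficient recipients lay below the median of the 19 in competent ones for Ccl6. It was 19 for Ccl9, 18 for Ccl8, 14 for Ccr1 and 7 for Ccl7. Against floxed controls, deficient lesions had 0.05 ± 0.34 for Ccl9, 0.20 ± 0.36 for Ccr1, 0.20 ± 0.41 for Ccl7 and -0.61 ± 0.44 for Ccl8. The members' median change was 0.00 (0.01 over all genes), with 19 on either side of 0, and 18 had an unadjusted p under 0.05.

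**Figure D2:**
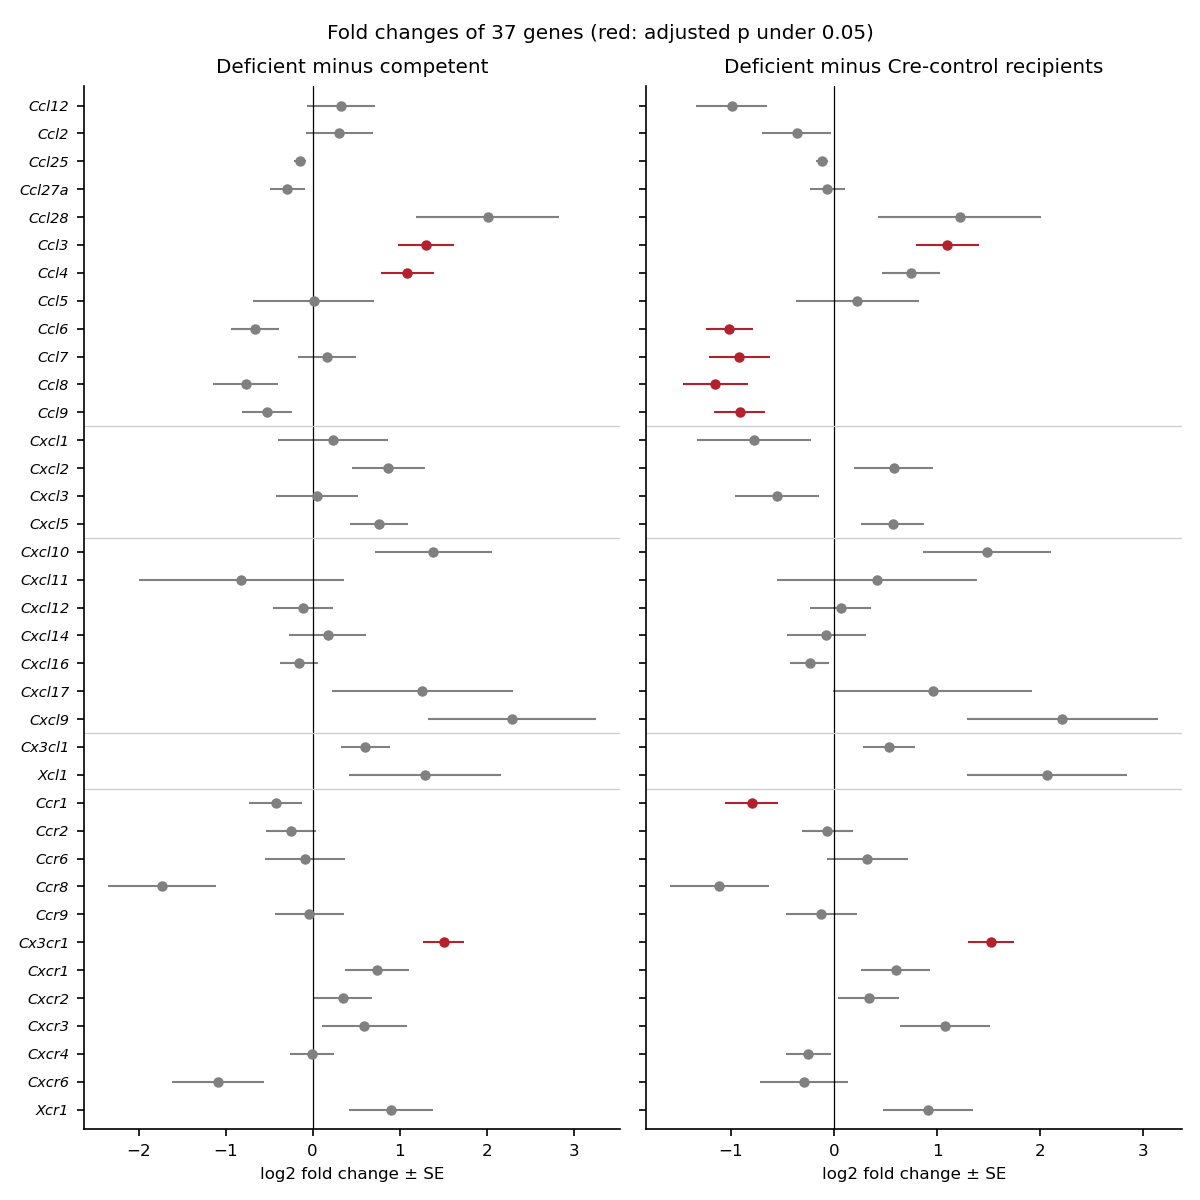
Log2 fold change ± SE (edgeR) of 37 of the genes, in role groups split by grey lines, for deficient against competent lesions (left) and for deficient against Cre-control recipients (right); red marks an adjusted p under 0.05. Cx3cr1 and Ccl3 are red and right of 0 in both panels, and the red genes left of 0 on the right are Ccl6, Ccl7, Ccl8, Ccl9 and Ccr1.

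Cx3cr1 again separated the groups fully. Cre fragments in deficient recipients had 27.0, 20.1, 45.9 and 24.01 CPM, and deficient fragments in Cre-control recipients had 12.2, 9.25, 6.78 and 5.34. With the untransferred lesions given above, the 8 deficient recipients ran from 14.9 to 45.9 CPM and the 8 Cre-control recipients from 5.34 to 12.2. The difference was 1.52 ± 0.22 (2.87-fold, adjusted p = 3.42e-05 by edgeR). Over all groups, 21 of the 22 lesions in deficient recipients lay above all 19 in competent ones, the exception being replicate 3 of the group given 250000 ILC2s with 9.06 CPM.

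The annotated span of Cx3cr1, chr9:119901616-120069879, reaches over several other genes, and with no known strand setting reads from shared bases cannot be told apart. Of these, Gm33858 on the opposite strand was also higher in deficient recipients (1.64 ± 0.35, adjusted p = 0.00261 by edgeR) and in deficient against competent lesions (1.42 ± 0.38, adjusted p = 0.0137). Wdr48, Gorasp1, Csrnp1, Ttc21a and the muscle gene Xirp1 had recipient values of -0.05 ± 0.05, -0.22 ± 0.11, -0.34 ± 0.14, 0.57 ± 0.42 and 1.15 ± 0.73, none of them called.

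Ccl3 had 14.5, 9.47, 8.13 and 4.04 CPM in Cre fragments in deficient recipients and 2.87, 5.23, 3.01 and 2.68 in deficient fragments in Cre-control recipients. Of the 8 deficient recipients 6 lay above all 8 Cre-control recipients, and the difference was 1.10 ± 0.30 (adjusted p = 0.0168 by edgeR). Ccl4 had 6.87, 5.20, 6.60 and 2.08 CPM against 2.62, 3.33, 1.94 and 1.96, and with the untransferred lesions its difference was 0.75 ± 0.28 (adjusted p = 0.0811).

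Ccl6, a chemokine of macrophages and other myeloid cells (ENSMUSG00000018927.3, chromosome 11, minus strand), fell in deficient recipients. Deficient lesions had 232, 127, 176 and 198 CPM and Cre fragments in deficient recipients 246, 241, 208 and 156.6. Cre controls had 451, 377, 252 and 338, and deficient fragments in Cre-control recipients 372, 778, 239 and 411. Of the 8 deficient recipients 6 lay below all 8 Cre-control ones, and all 8 below their median. The difference was -1.01 ± 0.23 (2.02-fold lower, adjusted p = 0.00423 by edgeR). E230016K23Rik, a noncoding transcript on the opposite strand that overlaps Ccl6, was also lower (-1.79 ± 0.23, adjusted p = 5.07e-06 by edgeR), and reads of shared bases cannot be assigned.

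Ccl9, the neighbour of Ccl6, fell by 0.92 ± 0.24 (adjusted p = 0.0135 by edgeR). It had 183, 110.05, 151.5 and 139 CPM in deficient lesions and 210.1, 214, 90.7 and 109.6 in Cre fragments in deficient recipients. Cre controls had 358, 283, 172 and 219, and deficient fragments in Cre-control recipients 227, 523, 178 and 331. The groups overlapped, with the highest deficient recipient at 213.8 and the lowest Cre-control one at 171.7 CPM. Without replicate 2 of the deficient fragments in Cre-control recipients Ccl9 was not called. Ccl9 lies 9.25 kb from Ccl6, and Ccl3 and Ccl4, which lie 54.8 kb further along and 13.2 kb apart, had the reverse sign, so neighbours in this cluster did not move as 1 block.

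Ccl8, a CC ligand of the other chromosome 11 cluster, fell by 1.15 ± 0.31 (adjusted p = 0.0148 by edgeR). It had 56.5, 44.1, 73.4 and 37.8 CPM in deficient lesions and 64.1, 51.8, 131 and 46.2 in Cre fragments in deficient recipients. Cre controls had 133, 176, 77.6 and 79.4, and deficient fragments in Cre-control recipients 225, 202, 77.2 and 153. Of the 8 deficient recipients 7 lay below all Cre-control ones, and the exception, at 131 CPM, was the library richest in T cell transcripts. Ccl7 of the same cluster fell by 0.92 ± 0.29 (adjusted p = 0.0381 by edgeR), with 4.11 to 12.7 CPM (median 8.43) in deficient and 6.93 to 25.5 (median 17.6) in Cre-control recipients. It had 9.12, 4.11, 6.46 and 7.73 CPM in deficient lesions, 9.34, 11.6, 12.7 and 7.28 in Cre fragments in deficient recipients, 16.1, 22.2, 9.85 and 8.31 in Cre controls and 19.3, 19.1, 6.93 and 25.5 in deficient fragments in Cre-control recipients, and the recipients overlapped. Ccl12 had -0.99 ± 0.34 (adjusted p = 0.0576) and Ccl2 -0.36 ± 0.34 (adjusted p = 0.545), and neither passed the test.

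Among the receptors, Ccr1 fell by 0.80 ± 0.26 (adjusted p = 0.0403 by edgeR), from 25.0 to 99.7 CPM (median 57.02) in Cre-control recipients to 16.4 to 46.2 (median 29.4) in deficient ones. It had 29.98, 16.4, 23.9 and 28.8 CPM in deficient lesions, 46.2, 45.6, 39.9 and 25.9 in Cre fragments in deficient recipients, 64.3, 58.3, 25.0 and 39.7 in Cre controls and 56.7, 99.7, 39.1 and 57.3 in deficient fragments in Cre-control recipients, and the recipients overlapped. Ccr2 had -0.06 ± 0.25 (adjusted p = 0.905). The calls of Ccl7 and Ccr1 were the least firm, since 10 and 9 of the 16 fits that left out 1 library lost them.

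**Figure D3:**
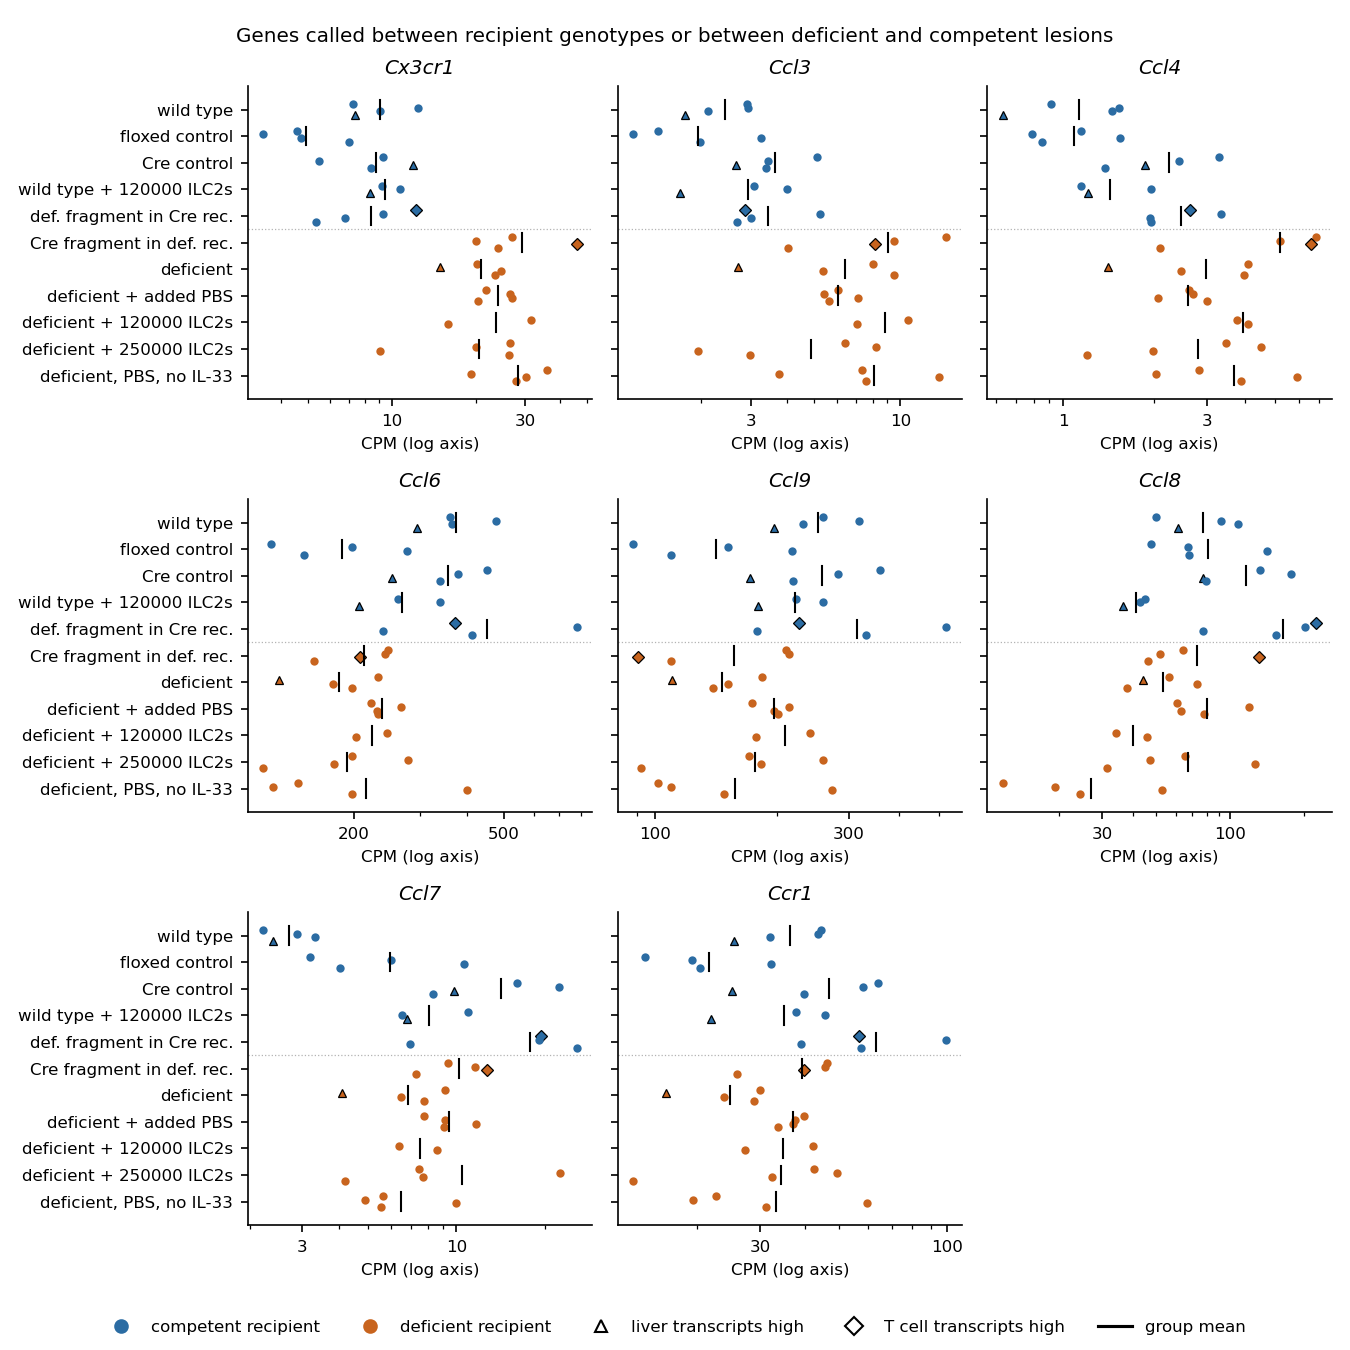
CPM (log axis) of 8 genes called by recipient or between deficient and competent lesions, by group (rows); points are libraries, black lines group means, blue competent and orange deficient recipients, triangles libraries with liver transcripts and diamonds the 2 libraries rich in T cell transcripts. In the Cx3cr1 panel 21 of 22 orange points lie right of all 19 blue points, and in the other panels the colours overlap.

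Lists of cell markers were read beside these changes. Of 12 monocyte and macrophage markers, all above 0 counts in every library, 1 was higher and 2 were lower by recipient (median -0.42). Their summed share was 0.218% to 0.469% (median 0.343%) in deficient recipients and 0.228% to 0.499% (median 0.332%) in Cre-control ones, and its part in the fall of these ligands and receptors was not tested. Of 9 T cell markers 3 were higher (median 1.19), and of 12 type 1 interferon response genes 12 were higher (median 1.29). Of 9 ILC2 genes 7 were lower (median -2.26), and 3 of the 9 were at 0 counts in at least 1 library. Over all genes 5.02% were higher and 6.29% lower by recipient. The part of these lists was not tested either. Of 4 eosinophil markers, of which 1 was at 0 counts in some library, 0 were higher and 2 lower (median -1.07). Their summed share was 0.000741% to 0.00102% in deficient recipients and 0.00337% to 0.00606% in Cre-control ones, without overlap, and its part in the lower ligands and receptors was not tested.

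The recipient effect can be read in 2 sets with no library in common, the untransferred lesions (deficient against Cre control) and the transferred ones. In the transferred set each recipient genotype has its own run of library names, so recipient and run cannot be told apart there. Each set alone called Cx3cr1 and none of the other 37 genes, with 3.83% and 1.01% of all genes called, at 1.24 ± 0.31 (adjusted p = 0.0226 by edgeR) and 1.80 ± 0.32 (adjusted p = 0.00336). Of the 38 genes 29 (76.3%) had the same sign in both sets, 15 higher and 14 lower, against 67.2% of all genes. Among the other called genes, Ccl6 had -0.95 ± 0.33 and -1.08 ± 0.33, Ccl8 -1.14 ± 0.44 and -1.16 ± 0.44, and Ccl9 -0.82 ± 0.35 and -1.01 ± 0.35. Ccl3 had 0.81 ± 0.43 and 1.39 ± 0.43. None of these 4 genes was called in either set alone. The called genes were picked on the mean of the 2 sets, so their like signs in both are no separate support. Without the 2 libraries rich in T cell transcripts 9 members were called by recipient, with Ccl12, Ccr8 and Cxcr6 added and Ccl7 and Ccr1 lost, and 2185 of 21248 genes in all, against 2403 of 21249 with them.

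**Figure D4:**
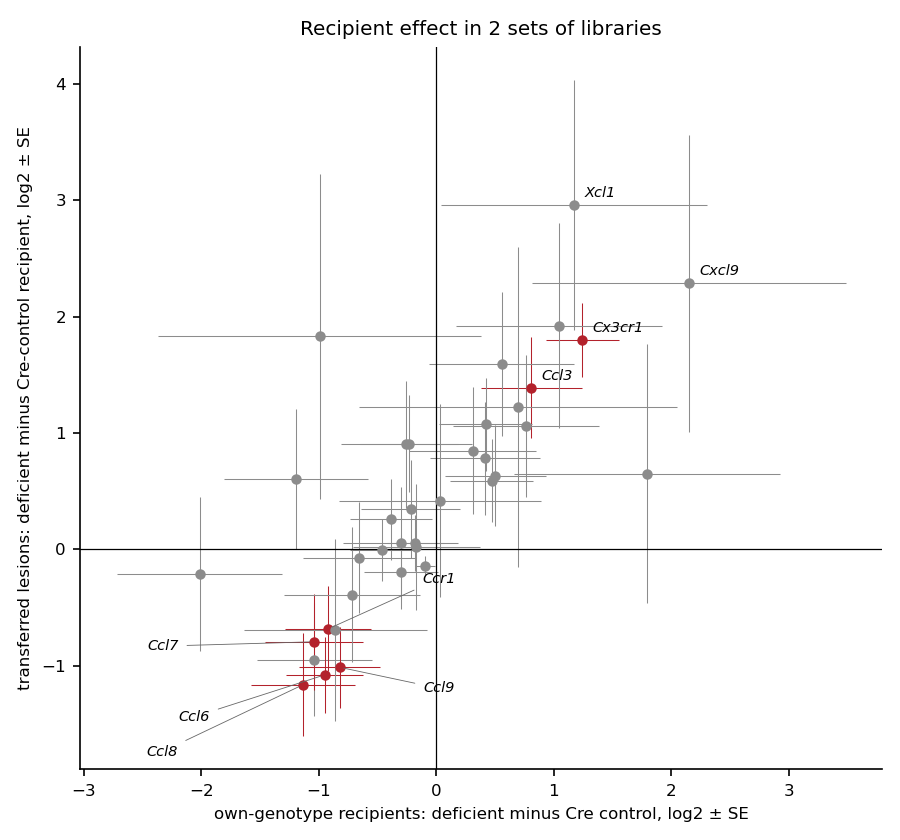
Log2 fold change ± SE of 37 of the genes between deficient and Cre-control recipients, in untransferred lesions (x axis) and transferred lesions (y axis), which share no library; red marks 7 genes called over both sets. Cx3cr1 and Ccl3 lie in the upper right, and Ccl6, Ccl7, Ccl8, Ccl9 and Ccr1 in the lower left. The red genes were picked on the mean of these same values.

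The interaction of recipient and fragment genotype compares lesions in their own genotype with transferred ones, and the transfer and its library runs cannot be told apart from it. It called 5 of 38 genes, all with higher levels in transferred lesions (0.414% of all genes). They are Ccl5, a T cell and macrophage ligand (-7.62 ± 1.32), the interferon-induced ligands Cxcl9 (-10.63 ± 2.10) and Cxcl10 (-6.11 ± 1.31), their receptor Cxcr3 (-3.84 ± 0.89), and Cxcr6 (-3.71 ± 0.88), a receptor of tissue lymphocytes. DESeq2's Wald test called 6, of which Cxcl10, Cxcr3 and Cxcr6 were among these 5, and 342 of all genes against 88 by edgeR. A fit to the compared groups alone, and one without the 4 libraries with liver transcripts, called 0 members, and one with the replicate block called 1.

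The high values came from the 2 libraries rich in T cell transcripts. Cxcl9 had 2.83, 2.40, 347 and 1.56 CPM in Cre fragments in deficient recipients and 66.3, 0.188, 5.61 and 0.459 in deficient fragments in Cre-control recipients, while the 8 untransferred lesions of the same genotypes had 0.147 to 3.42. Cxcl10 had 6.43, 4.46, 83.7 and 3.83 CPM and 20.8, 0.399, 4.31 and 0.410. Ccl5 had 1.99, 1.91, 55.7 and 1.74 CPM and 39.2, 2.37, 2.42 and 1.74. In each gene 1 library of a group stood far above the other 3, and the same 2 libraries did so throughout.

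The receptors followed the same libraries. Cxcr3 had 2.99, 2.06, 32.8 and 2.53 CPM in Cre fragments in deficient recipients and 8.88, 2.04, 1.45 and 0.990 in the reverse transfer. Cxcr6 had 3.22, 2.67, 31.8 and 1.71 CPM and 15.7, 4.27, 3.90 and 1.96. Xcl1, a ligand made by T and NK cells, reached 13.0 and 1.42 CPM in those 2 libraries, against at most 0.979 in the other 39. Without the 2 libraries the interaction called 0 of the 38 genes, with 3 called over all genes.

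**Figure D5:**
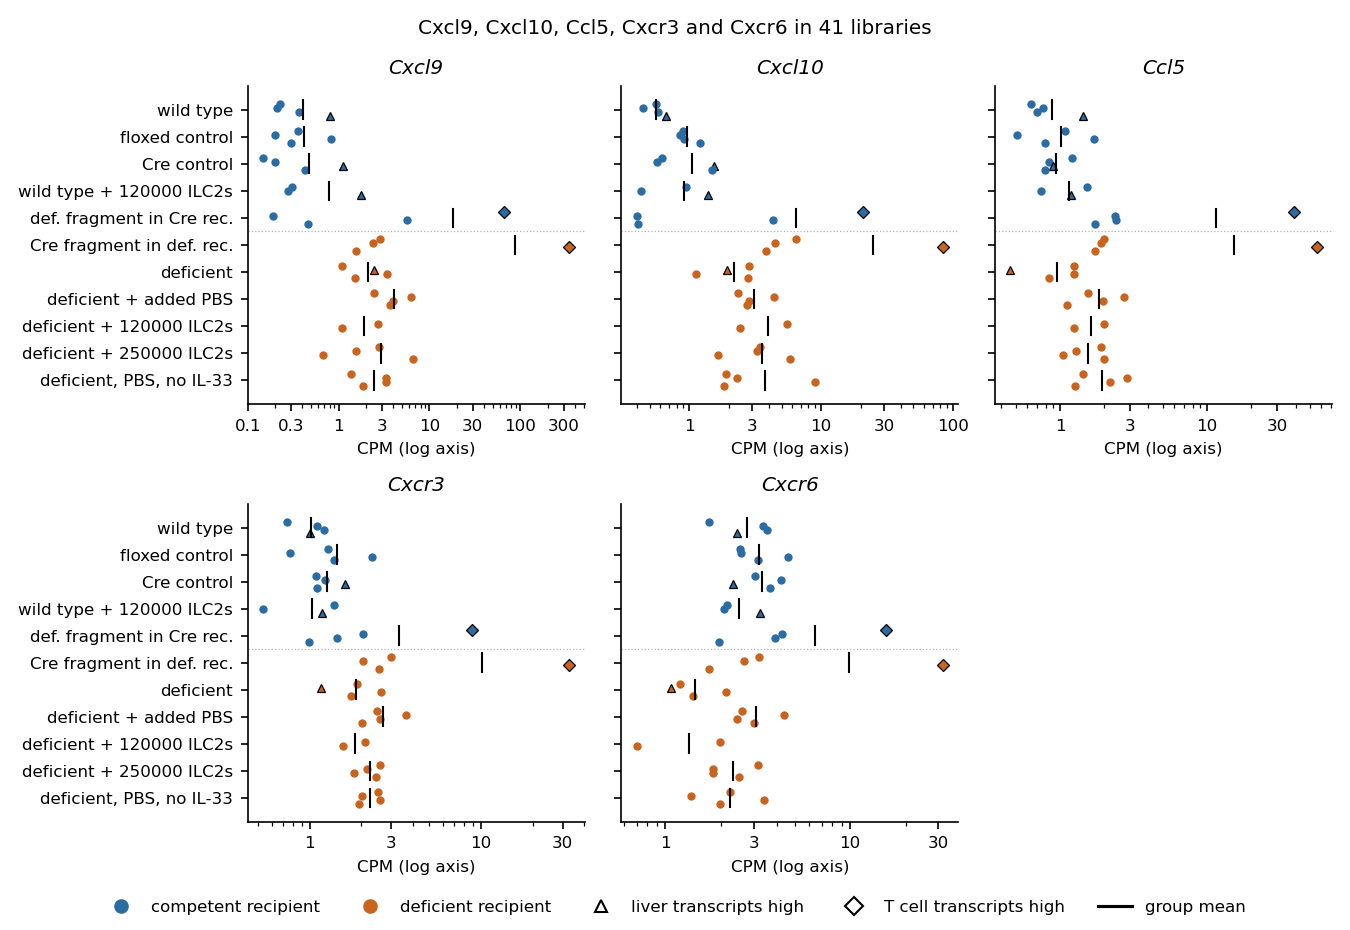
CPM (log axis) of Cxcl9, Cxcl10, Ccl5, Cxcr3 and Cxcr6 by group (rows); points are libraries, black lines group means, and diamonds the 2 libraries in which T cell transcripts took over 0.005% of the counts. Both diamonds lie right of all other points in every panel, with Cxcl9 at 347 and 66.3 CPM.

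In untransferred lesions, the interferon-induced ligands had higher values in deficient mice without passing the test. Cxcl9 had 1.09, 2.48, 3.42 and 1.52 CPM in deficient lesions and 0.147 to 1.12 (median 0.329) in the 12 competent ones, with 2.29 ± 0.96 (adjusted p = 0.123). Cxcl10 had 2.86, 1.93, 1.12 and 2.80 CPM against 0.448 to 1.54, with 1.39 ± 0.67 (adjusted p = 0.186). The groups overlapped in both genes. By recipient the values were 2.22 ± 0.92 (adjusted p = 0.120) and 1.48 ± 0.62 (adjusted p = 0.122), and without replicate 1 of the deficient fragments in Cre-control recipients both were called, along with Cxcr3, Xcl1 and Xcr1. Without replicate 3 of the Cre fragments in deficient recipients the Cxcl9 value turned to -0.40. Of 14 interferon gamma response genes 0 were called by recipient (median 0.69).

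The neutrophil branch did not pass the test in any of the 12 comparisons. Against wild type alone, which is not among the 12, Cxcr1 was called (1.49 ± 0.49, adjusted p = 0.0499 by edgeR). Cxcl2 had 0.87 ± 0.42 and Cxcl5 0.76 ± 0.34 between deficient and competent lesions (adjusted p = 0.190 and 0.145), Cxcl3 had 0.05 ± 0.47 and Cxcl1 0.24 ± 0.63. Their receptors Cxcr1 and Cxcr2 had 0.74 ± 0.37 and 0.35 ± 0.33. By recipient Cxcl1 and Cxcl3 had -0.78 ± 0.55 and -0.55 ± 0.41 and Cxcl2 and Cxcl5 0.58 ± 0.38 and 0.57 ± 0.31. Cxcl1 had 2.36, 4.17, 10.9 and 10.2 CPM in the 4 libraries with liver transcripts (wild type, deficient, Cre control and wild type given ILC2s), against a median of 1.95 over the series, and was highest in replicate 2 of the group given 250000 ILC2s (14.7).

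Some members were high in libraries that held transcripts of liver or of endometrial epithelium, and the part of these tissues in the values was not tested. Cxcl12, which retains Cxcr4-positive cells, had 328, 202, 348 and 448 CPM in the 4 libraries with liver transcripts (wild type, deficient, Cre control and wild type given ILC2s), against a median of 139.5 over the series. Cxcl11 had 4.12, 0.919, 2.64 and 7.13 CPM there, against a median of 0.157, and 3.01 in the library richest in T cell transcripts. Ccl28 and Cxcl17 were highest where a list of 10 endometrial epithelium genes was: replicate 4 of the deficient group (0.509% of counts) had 89.0 and 35.3 CPM, and replicate 1 of the deficient group given 120000 ILC2s (0.415%) had 69.6 and 36.8 CPM. In replicate 3 of the floxed controls (0.00486%) they had 0.445 and 0.0468 CPM. By recipient Ccl28 had 1.22 ± 0.79 and Cxcl17 0.96 ± 0.97, and Cxcl12 had 0.07 ± 0.30, none called. Cxcl12 had 118, 202, 196 and 81.6 CPM in deficient lesions, 267, 183, 107.4 and 191 in Cre fragments in deficient recipients, 114, 96.0, 348 and 136 in Cre controls and 160.4, 182, 118.8 and 126.3 in deficient fragments in Cre-control recipients, with overlap throughout.

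Cxcl14 and Cxcr4, abundant throughout, were not called. Cxcl14 had 73.6, 47.7, 73.9 and 94.0 CPM in deficient lesions and 13.6 to 111 in competent ones (0.17 ± 0.44). Cxcr4 had 35.7, 19.0, 40.9 and 29.8 CPM in deficient lesions and 18.5 to 47.2 in competent ones (-0.01 ± 0.26). The groups overlapped throughout, and by recipient the values were -0.07 ± 0.38 and -0.25 ± 0.22.

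Fragment genotype and IL-33 gave no called member. For deficient against Cre-control fragments 0 of 38 genes were called (0.00471% of all genes, 1 member at an unadjusted p under 0.05, 0 by DESeq2). The 1 was Cxcr6, Cx3cr1 had -0.28 ± 0.22, and 33 of the 38 values were negative with a median of -0.19. No sign count over all genes is set beside this, and both libraries rich in T cell transcripts enter the comparison. For IL-33 against PBS in deficient mice 0 were called (0.00941%, 1 unadjusted, 0 by DESeq2), and the 1 with an unadjusted p under 0.05 was Ccl8. Ccl8 had 11.8, 19.3, 52.8 and 24.4 CPM with PBS and 0.97 ± 0.44 more on the log2 scale with IL-33 (adjusted p = 0.679). Cx3cr1 lay within the range of the other deficient groups with PBS, at 35.9, 19.3, 30.2 and 27.8 CPM.

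After 250000 ILC2s, 0 of 38 genes were called against added PBS (0% of all genes, 1 unadjusted, 0 by DESeq2). Cx3cr1 had 26.4, 20.1, 9.06 and 26.3 CPM after the cells and 21.8, 26.6, 26.9 and 20.4 with added PBS, Ccl6 had 198, 279, 177 and 115 against 222, 267, 230.0 and 232, and Ccl3 had 6.38, 8.20, 1.96 and 2.96 against 6.05, 5.40, 7.12 and 5.64. These groups overlapped in all 3 genes. Ccr2 (-0.75 ± 0.35) and Ccr6 (-1.04 ± 0.55) were not called, with adjusted p = 0.571 and 0.584 by edgeR. After 120000 ILC2s 0 were called in deficient mice (0%, 0 unadjusted, 0 by DESeq2) and 0 in wild type (0%, 4 unadjusted, 0 by DESeq2), and the interaction with genotype called 0 (0%, 1 unadjusted, 0 by DESeq2). Ccl7 had 2.21, 2.87, 3.30 and 2.39 CPM in wild type and 10.9, 6.55 and 6.79 after 120000 ILC2s, and was not called (1.58 ± 0.45, adjusted p = 0.858 by edgeR).

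Between control groups few members were called. Against Cre and floxed controls together, wild type called 1 of 38 genes, no more than the share over all genes (2.65%). Ccl7 was lower in wild type (-1.76 ± 0.39, adjusted p = 0.0144 by edgeR), with 2.21 to 3.30 CPM there, 8.31 to 22.2 in Cre controls and 3.19 to 10.6 in floxed controls. Without wild-type replicate 1, without wild-type replicate 4, or without the 4 libraries with liver transcripts it was not called. Cre against floxed controls called 0 (0.329%, 15 unadjusted, 1 by DESeq2), and 30 of the 38 values were positive with a median of 0.65, against 0.03 over all genes. Ccl12 (1.71 ± 0.50), Ccr1 (1.12 ± 0.37) and Ccl6 (0.93 ± 0.33) were among them. Added PBS against none in deficient mice under IL-33 called 0 (0.0141%, 7 unadjusted, 2 by DESeq2). The median was 0.30. Ccr6 had 1.57 ± 0.56 and Ccr2 0.95 ± 0.35, while the epithelial ligands Cxcl17 and Ccl28 had -3.96 ± 1.53 and -3.10 ± 1.19. Endometrial epithelium genes made up 0.00162% to 0.0294% of counts with added PBS and 0.0585% to 0.509% without, and their part in these values was not tested.

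Other genes of the pathway were read from a list. Of 28 genes for atypical receptors, platelet chemokines, G protein subunits and signalling partners, 0 were called between deficient and competent lesions (2 at an unadjusted p under 0.05) and 1 by recipient, Pik3r5, a regulatory subunit of the kinase that chemokine receptors activate (-0.54 ± 0.18, adjusted p = 0.0494 by edgeR). Their median changes were -0.08 and -0.15. The platelet chemokine Pf4 had -0.82 ± 0.29 (adjusted p = 0.0629) by recipient, and the decoy receptor Ackr3 -0.21 ± 0.22. Of the 9 type 2 and homeostatic chemokine genes left out of the set, 3 fell in each comparison (medians -0.77 and -0.82). Over all genes 4.72% were called lower between deficient and competent lesions and 6.29% by recipient.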

How the data were processed

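RNA from 41 whole lesions had been sequenced (NEBNext UltraExpress library kit, per the labels' protocols). The authors deposited raw counts per gene in 1 table of 21249 genes. The submitters' processing notes name Trimmomatic, STAR, HTSeq, edgeR and limma with GRCm38. The strand setting, the annotation and the filter on low counts are not given in the sources used here. In the table every gene total reached at least 411 counts. Genes were placed with GENCODE M21.

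Titles and characteristics gave the groups. Separate animals are not stated, so p-values reflect sample-to-sample spread that may be technical. In 58 replicate pairs counts differed beyond sampling noise (chi-square over its degrees of freedom from 20.4 to 1327). No batch is labelled, but library names fall in runs that follow the groups in part, and there the 2 cannot be told apart.

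All contrasts (12) came from 1 edgeR 4.0.16 model of 11 group means (R 4.3.3, TMM, robust quasi-likelihood F-test), with Benjamini-Hochberg adjustment at 0.05 over all genes. Standard errors were derived from the fold change and the F statistic. The biological coefficient of variation was 0.465, and filterByExpr removed no gene. In data simulated for deficient against competent lesions (21249 genes), 67 of 100 genes changed 2-fold and 91 of 100 changed 4-fold were recovered. The changed genes were drawn only from genes above a set mean count. Recovery for genes with few counts, such as Ccr8 (median 20 per library), was not measured. Count limits cover counting error only.

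The members, gene lists and comparisons were chosen with earlier results of these data known. Counts cover all 38 members, of which 1 is not reported here by name; the others are named with their range; values by library are given for those called between deficient and competent lesions, by recipient or after 250000 ILC2s, and for the 6 with the highest median FPKM. Ccl5, Cxcl9, Cxcl10, Cxcr3, Cxcr6, Ccr8 and other members given by library were chosen after their values were seen. Alternatives were DESeq2 1.42.0, its size factors, a mean of at least 1 CPM, the compared groups alone, the replicate number as a block, and leaving out libraries. Promoters are from RefSeq (GRCm38.p6), and protein sequences were not used here.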

Additional observations from a re-analysis of the deposited data

Results flagged for a closer look

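In 144 groups of 4 libraries (16 genes in 9 groups), 16 held a value far from the other 3. The genes were named members called in any comparison, with Cxcl14, Cxcr4 and Cxcl12 added. They include the 5 called in the interaction of recipient and fragment genotype, whose high values came from the same lesions as below. The count therefore cannot be set against chance. Most of the lone values were in 2 lesions. Replicate 3 of the Cre fragments in deficient recipients had high Ccl5 (55.67 CPM, others at most 1.991), Cxcl9 (347.2), Cxcl10 (83.73), Cxcr3 (32.81) and Cxcr6 (31.77). Replicate 1 of the deficient fragments in Cre-control recipients had high Ccl5 (39.25 CPM), Cxcl9 (66.31), Cxcr3 (8.876) and Cxcr6 (15.7). T cell transcripts took 0.0467% and 0.0102% of the counts there, and at most 0.003995% in any other library.

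Other lone values were Ccl5 at 1.442 CPM in replicate 4 of wild type, Ccl7 at 9.949 and Cxcl10 at 8.948 in replicate 3 of the deficient group given PBS, and Ccl3 at 5.233 in replicate 2 of the deficient fragments in Cre-control recipients. Cxcl14 was at 116.6 CPM in replicate 4 of that group. Cxcl12 was at 348.4 CPM in replicate 3 of the Cre controls, a library with liver transcripts, and at 256.6 in replicate 2 of the group given 250000 ILC2s.

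The interaction of recipient and fragment genotype differed from 0 for Ccl5 (-7.617), Cxcl9 (-10.63), Cxcl10 (-6.109), Cxcr3 (-3.841) and Cxcr6 (-3.709), and none of the 5 was called without the 2 libraries rich in T cell transcripts.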

How the results depend on the processing

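Cx3cr1 was called as higher in all 23 other settings for deficient against competent lesions (1.24 to 1.67) and in all 25 by recipient (1.24 to 1.80). By recipient, Ccl7 lost its call in 15 of 25 and Ccr1 in 13 of 25. For deficient against competent lesions 3 members were called, against 9 with the compared groups only, 1 with Cre controls alone, 5 by DESeq2's Wald test and 1 to 4 when leaving out each replicate in turn. Over all genes the calls were 2329, against 813 with Cre controls alone and 698 to 2462 when leaving out a replicate. By recipient 8 were called, against 1 with own-genotype recipients alone, 1 with transferred lesions alone and 5 to 12 when leaving out a replicate, the 5 without replicate 2 of the deficient fragments in Cre-control recipients. Calls over all genes were 2403, against 813, 214 and 1602 to 2446 in these settings. The interaction of recipient and fragment genotype called 5, against 0 with the compared groups only, 0 without liver libraries, 0 without T cell-rich libraries, and 0 to 5 when leaving out a replicate. Of all genes it called 88, and 3 to 264 when leaving out a replicate. Wild type against both controls called 1, against 0 with the compared groups only, 4 by DESeq2, 2 with a mean of at least 1 CPM, 0 without liver libraries and 0 to 2 when leaving out a replicate. It called 563 of all genes, and 87 to 979 when leaving out a replicate. Added PBS called 0, against 2 by DESeq2 and 1 without liver libraries, and Cre against floxed controls 0, against 1 by DESeq2. These 2 comparisons called 3 and 70 of all genes, and 0 to 423 and 45 to 70 when leaving out a replicate. The other 6 comparisons called 0 members in every setting run. Cxcl9 by recipient reversed to -0.4031 without replicate 3 of the Cre fragments in deficient recipients and was 3.78 without replicate 1 of the reverse transfer. The settings without T cell-rich libraries, own-genotype recipients alone and transferred lesions alone were chosen after seeing the data.

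Replicate numbers did not pair the samples: same-numbered libraries had a median correlation of -0.000967 (65 of 191 over 0.1), and 7 of 41 correlated best with their own number. With the replicate block 3, 8 and 1 members were called for deficient against competent lesions, recipient and the interaction of recipient and fragment genotype. DESeq2's size factors moved the median of all genes by at most 0.03. Genes with few counts (Ccr8, Ccr6, Cxcr1, Xcl1, Xcr1, Ccr9, Cxcl11) limit what can be seen.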
